A study of Homo sapiens with 8 samples.

Results

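The Burkitt lymphoma line Ramos was set against the untreated Hodgkin lymphoma line KMH2 on whole-transcript arrays. The comparison used 5 of the 8 arrays of the series: the 2 arrays of Ramos cells and the 3 arrays labelled as KMH2 control. The 3 arrays of KMH2 cells given glucosamine, an amino sugar, for 24 h took no part in it. Both lines are established human cell lines labelled as lymphocytes, grown in RPMI medium with serum, and each stands for 1 tumour, so a difference between them is a difference between 2 lines and not between 2 diseases. The KMH2 control arrays were described by the submitters as biological replicas. Both Ramos arrays were labelled as control, whereas the design text of the series puts 1 of the pair after 24 h of glucosamine. No treatment was assigned to either Ramos array here, and a gene was counted only where both lay on the same side of all 3 KMH2 control arrays. Whether the Ramos arrays came from separate cultures is not given in the labels or design text, so the p-values measure the spread between these arrays, which may be technical.

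Burkitt lymphoma cells are malignant germinal centre B cells, which keep the B-cell antigen receptor and the transcription factors that maintain B-cell identity. Hodgkin tumour cells also descend from germinal centre B cells but have lost most of that programme, and are known for constitutive NF-kappaB and JAK-STAT signalling, surface CD30 and a large output of cytokines and chemokines. The genes were therefore grouped by the B-cell programme, by Hodgkin markers and signalling, and by general cell functions.

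Probe sets paired with a single gene symbol stood for 17958 genes, each taken from its brightest probe set over the 5 arrays. A gene was called where limma's Benjamini-Hochberg adjusted p was under 0.05 and the Ramos arrays lay apart from the KMH2 control arrays. On that rule 6891 genes, 38.4% of those tested, differed between the lines. Of these 3439 (19.2%) were higher and 3452 (19.2%) lower in Ramos. The groups lay apart without overlap in 11553 genes (64.3%), so that alone marks no gene out. Every gene with an adjusted p under 0.05 lay apart, so the condition on both Ramos arrays removed none. A difference of at least 2-fold was called higher for 1139 genes (6.34%) and lower for 1525 genes (8.49%). The median size of a called gene's difference, whatever its direction, was 0.80 on the log2 scale. At least 16-fold higher in Ramos were 77 genes, and at least 16-fold lower 167. The genes called higher numbered 2230 without KMH2 control array 2 and 2249 without KMH2 control array 3. Where a Ramos array was left out below, the remaining one was assumed to vary like the KMH2 control arrays. Such counts are less certain. All signals are log2 values in which weak signals include background, so folds of dim genes are understated. Low, intermediate and high below describe a gene's signal on the array scale. Transcript levels of different genes cannot be ranked by it. In cultures measured in bulk, fewer cells making a transcript and less of it per cell cannot be told apart.

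The array replicates lay close together. Correlations across probe sets were at least 0.996 among the KMH2 control arrays and 0.988 between the Ramos arrays, against 0.925 to 0.933 between the lines. The median SD of a gene was 0.0666 in KMH2 control and 0.112 in Ramos. KMH2 control array 1 stood more than 0.5 from its group's median in 153 genes, against 2 and 3 genes for the other arrays of that group. The Ramos arrays differed from each other by more than 1 in 167 called genes, 2.42% of them. The widest such gap was at TXNIP, a thioredoxin-binding protein, chosen here after its values were seen: the Ramos arrays read 7.99 and 11.54 and the KMH2 control arrays 4.49, 4.59 and 4.45.

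**Figure D1:**
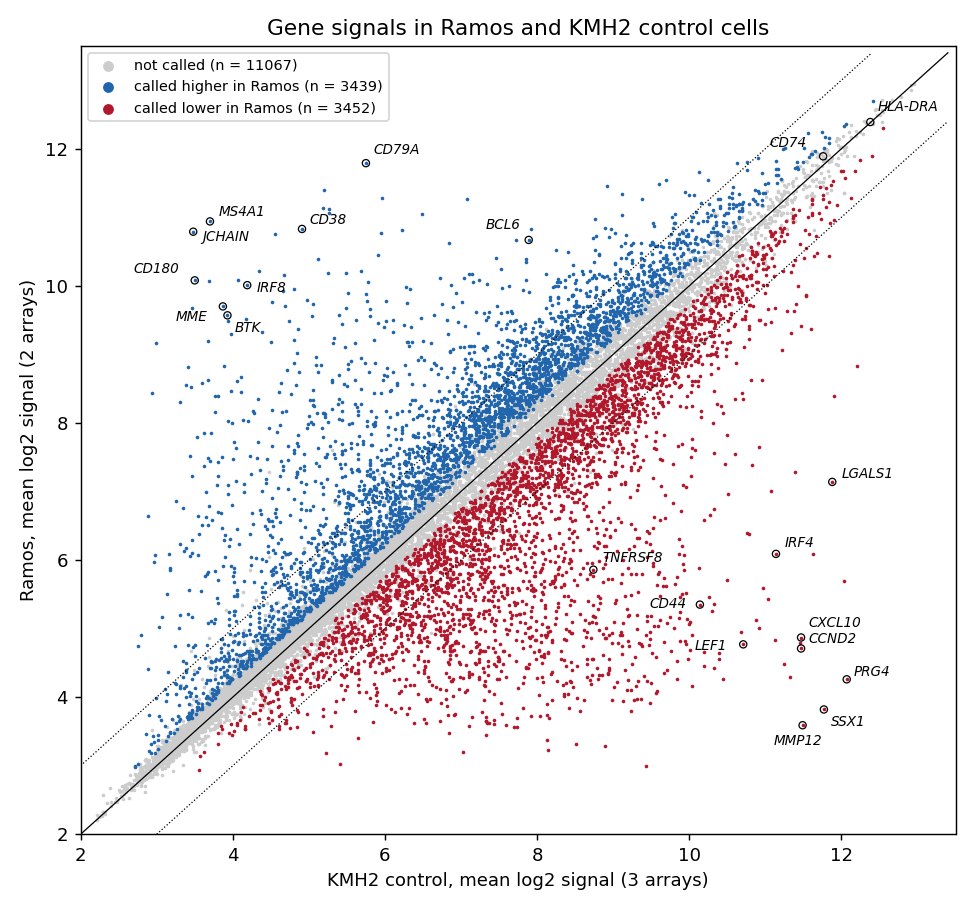
Mean log2 signal of each of 17958 genes in Ramos (2 arrays, vertical axis) against KMH2 control (3 arrays, horizontal axis), with genes called higher in Ramos in blue, called lower in red and the rest in grey. The solid line marks equal signals and the dotted lines a 2-fold difference. Ringed genes are named in the text: MS4A1, CD79A and BTK lie far above the lines, SSX1, MMP12 and LEF1 far below, and HLA-DRA and CD74 on the diagonal.

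Genes of the antigen receptor complex and its co-receptors were mostly higher in Ramos. Of 17 measured members 13 were higher and 1 lower in Ramos, 82.4% called against 38.4% of all genes. The median difference was 2.54, against 0.06 over all genes tested. MS4A1, which encodes the surface protein CD20, read 3.72, 3.55 and 3.82 in the KMH2 control arrays and 11.04 and 10.83 in the Ramos arrays. The groups did not overlap, and the gene was 151-fold higher in Ramos, with a difference of 7.24 ± 0.11 (SE) and a limma adjusted p of 1.81e-06. CD79A, a signalling chain of the B-cell receptor, read 5.72, 5.76 and 5.78 in KMH2 control and 11.78 and 11.81 in Ramos, 65.8-fold higher. Its partner chain CD79B read 5.18, 5.27 and 5.30 against 10.11 and 10.27, 30.8-fold higher. Both chains were thus high in each Ramos array and low in each KMH2 control array. CD22, an inhibitory lectin receptor of B cells, read 6.09, 4.94 and 4.79 in KMH2 control, with array 1 above the other arrays, and 11.30 and 10.83 in Ramos. The Fc receptor-like genes FCRL3, FCRL1, FCRL2 and FCRLA were 14.9-fold, 7.8-fold, 7.1-fold and 6.91-fold higher in Ramos. CR2, the complement receptor CD21, went the other way: it read 11.36, 11.38 and 11.38 in KMH2 control and 10.64 and 9.96 in Ramos, 2.11-fold lower. Against the KMH2 arrays given glucosamine its difference was 0.06.

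Cytoplasmic enzymes and adaptors that carry the receptor's signal were also mostly higher in Ramos. Of 27, 17 were higher, 2 lower and 8 not called, 70.4% called against 38.4% of all genes. Their median difference was 1.26. BTK, the tyrosine kinase downstream of the receptor, read 3.91, 3.90 and 3.99 in the KMH2 control arrays and 9.75 and 9.39 in the Ramos arrays, 49.8-fold higher with a limma adjusted p of 3.25e-06. RASGRP3, an activator of Ras in B cells, read 3.66, 3.66 and 3.70 against 9.36 and 9.02, 45.7-fold higher. PRKCB, the protein kinase C isoform of B cells, read 4.37, 4.42 and 4.39 against 9.57 and 9.07, 30.4-fold higher. Each of these 3 genes was low in all KMH2 control arrays and high in both Ramos arrays. BANK1, a B-cell scaffold protein, read 3.69, 3.80 and 3.66 in KMH2 control and 7.15 and 8.54 in Ramos, and its difference was 4.83 without Ramos array 1 and 3.43 without Ramos array 2. PTPRC, the phosphatase CD45, was 13-fold higher and CBLB, a ubiquitin ligase that restrains the receptor, 10.6-fold higher. SYK and BLNK, the kinase and adaptor next to the receptor and chosen after their values were seen, were 4.27-fold and 2.16-fold higher. The phospholipase PLCG2, which they activate, was high in both lines, at 12.29, 12.33 and 12.27 in KMH2 control and 12.32 and 12.47 in Ramos, and was not called. Members that were not called ranged from -0.43 to 0.51.

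The promoters of 4 of these genes held motifs of factors whose genes are described next, and are shown for that reason. Sequences are from RefSeq (GRCh38.p14), 5′ to 3′ on the gene's strand, cut to 40 bases around the motifs within the 250 bases before the start of transcription. Capitals mark GAGGAAGT, a PU.1-type motif bound by the products of SPI1 and SPIB, or its reverse complement ACTTCCTC, or the octamer ATGCAAAT or its reverse complement ATTTGCAT, the motif of POU2F2 and its coactivator POU2AF1. The BTK stretch is chrX:101390797-101391007 (minus strand), the RASGRP3 stretch chr2:33436267-33436347 (plus), the BANK1 stretch chr4:101790621-101790708 (plus) and the PRKCB stretch chr16:23835863-23835950 (plus).
BTK: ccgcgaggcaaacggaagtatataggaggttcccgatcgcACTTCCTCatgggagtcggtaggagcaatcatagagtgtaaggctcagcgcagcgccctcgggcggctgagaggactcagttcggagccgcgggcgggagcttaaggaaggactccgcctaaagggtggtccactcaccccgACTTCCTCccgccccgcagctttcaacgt
RASGRP3: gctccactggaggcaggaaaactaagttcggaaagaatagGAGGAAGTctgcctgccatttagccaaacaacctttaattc
BANK1: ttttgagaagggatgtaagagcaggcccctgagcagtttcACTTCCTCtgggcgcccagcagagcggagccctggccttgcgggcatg
PRKCB: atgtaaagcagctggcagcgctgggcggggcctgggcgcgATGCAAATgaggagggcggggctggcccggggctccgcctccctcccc

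Over 27305 RefSeq promoters, 1 per gene, 2.13% held the PU.1-type motif and 1.66% the octamer on either strand in those 250 bases. Among the genes at least 16-fold higher in Ramos with a promoter in the table, 6 of 63 (9.52%) held the PU.1-type motif: BANK1, BTK, IRAG2, PIK3CG, RASGRP3 and UCP2. Of those at least 16-fold lower 3 of 124 (2.42%) held it. The contrast was smaller among all genes called at least 2-fold apart, where 4.51% of 886 higher and 2.80% of 1213 lower genes held it. The octamer was present in 3 of the 63 (4.76%), PRKCB, SERPINA9 and ST6GAL1, and in 1 of the 124 (0.806%), and in 2.93% of the 886 and 1.40% of the 1213. These counts describe letters in a window, with no test, and a match is not evidence of binding.

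**Figure D2:**
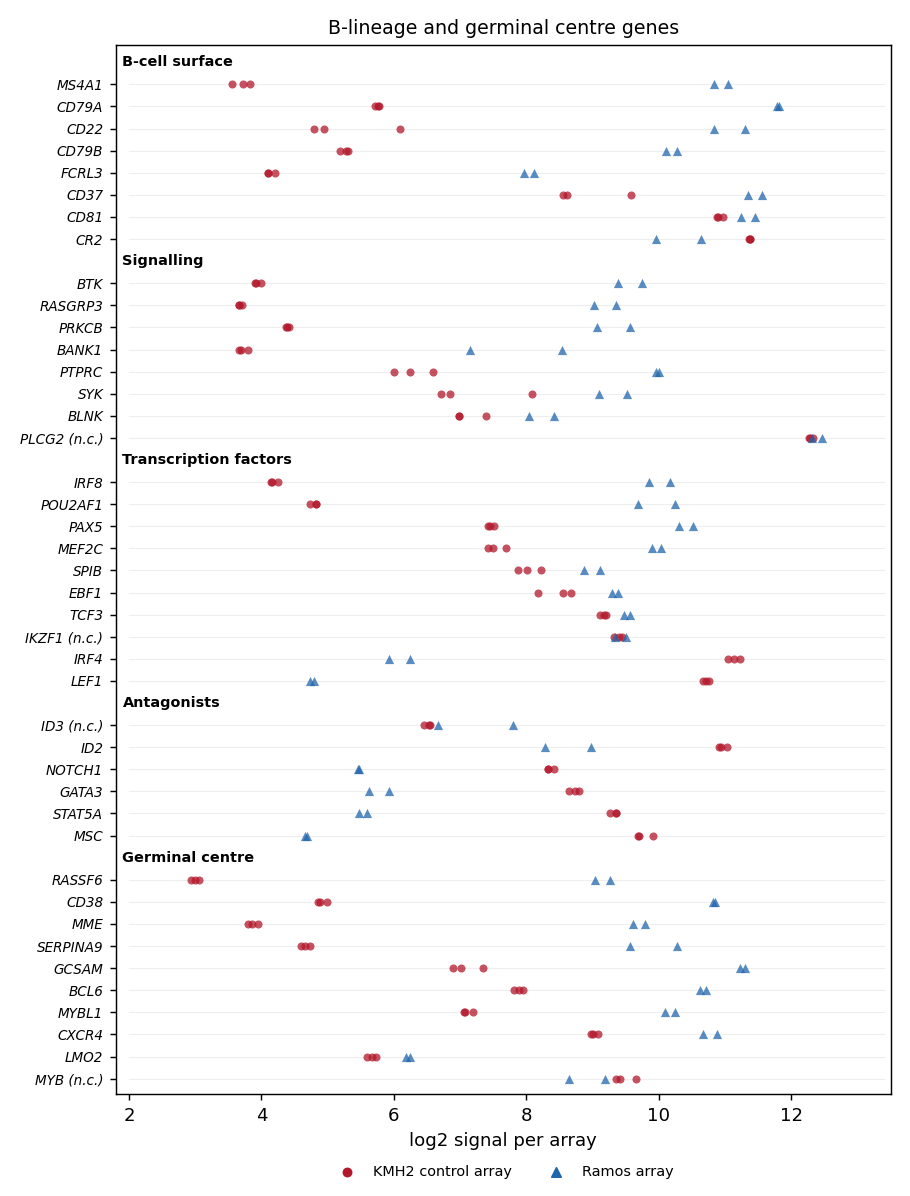
Log2 signal per array (horizontal axis) of B-lineage and germinal centre genes (rows), with red circles for the 3 KMH2 control arrays and blue triangles for the 2 Ramos arrays; n.c. marks genes that were not called. Most rows have the triangles to the right, and they lie to the left for CR2, IRF4, LEF1, ID2, NOTCH1, GATA3, STAT5A, MSC and MYB.

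Transcription factors of the B lineage did not move as a block. Of 24 measured factors 16 were higher and 4 lower in Ramos, 83.3% called against 38.4% of all genes. The median difference, 0.78, was smaller than that of the receptor genes. IRF8, a factor of germinal centre B cells and myeloid cells, read 4.25, 4.15 and 4.16 in the KMH2 control arrays and 10.17 and 9.86 in the Ramos arrays, 56.7-fold higher. POU2AF1, the B-cell coactivator of octamer-binding factors, read 4.82, 4.73 and 4.83 against 10.24 and 9.69, 36-fold higher. Both genes were low in all KMH2 control arrays and high in both Ramos arrays. PAX5, the factor that commits cells to the B lineage, read 7.51, 7.42 and 7.45 in KMH2 control and 10.52 and 10.30 in Ramos, 7.72-fold higher. EBF1, which acts with PAX5 in early B cells, read 8.18, 8.67 and 8.56 against 9.39 and 9.29, only 1.83-fold higher. TCF3, which encodes the E2A proteins, read 9.21, 9.18 and 9.12 against 9.57 and 9.47, 1.27-fold higher. The call of TCF3 was lost without KMH2 control array 2 or 3 (adjusted p between 0.00266 and 0.128 over the alternatives tried, limma). SPI1 and SPIB, which encode the ETS factors PU.1 and Spi-B, were 3.45-fold and 1.94-fold higher. IKZF1, the lymphoid factor Ikaros, read 9.44, 9.40 and 9.32 and 9.50 and 9.34, and was not called.

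A pair of factors stood far lower in Ramos. LEF1, a Wnt pathway factor, read 10.71, 10.76 and 10.67 in the KMH2 control arrays and 4.74 and 4.80 in the Ramos arrays, 61.5-fold lower with a limma adjusted p of 1.78e-06. IRF4, needed for plasma cell formation and known for high expression in Hodgkin cells, read 11.23, 11.13 and 11.05 against 5.93 and 6.25, 33.1-fold lower. IRF8 and IRF4, members of 1 family, thus had opposite orders in the lines.

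The list of antagonists of the B-cell programme also held Notch pathway genes and a corepressor, which need not oppose that programme. It was mixed, with 9 of 17 lower and 3 higher in Ramos and a median difference of -0.34. Of the 17, 70.6% were called, against 38.4% of all genes. MSC, the bHLH factor ABF-1 that opposes E2A, read 9.91, 9.69 and 9.70 in KMH2 control and 4.69 and 4.66 in Ramos, 34.1-fold lower. ID2, an inhibitor of E proteins, read 11.03, 10.94 and 10.91 against 8.28 and 8.98, 5.04-fold lower. The related inhibitor ID3 read 6.54, 6.53 and 6.45 in KMH2 control and 7.80 and 6.66 in Ramos, where the arrays lay apart. It was not called (adjusted p 0.137, limma). Its difference was 0.15 without Ramos array 1 and 1.3 without Ramos array 2. NOTCH1, which directs lymphoid cells away from the B lineage, was 7.4-fold lower, GATA3, a T-cell factor, 7.8-fold lower, and the cytokine-activated factor STAT5A 13.9-fold lower. Members of the list that were higher in Ramos were DTX1, a Notch pathway ubiquitin ligase, at 20.8-fold, the corepressor TLE4 at 7.74-fold and the repressor HES1 at 3.4-fold.

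Germinal centre genes had the highest median difference of the lists, 2.79: 20 of 25 were higher in Ramos, 5 were not called and none was lower, although 1 was called lower without Ramos array 1. Of the 25, 80% were called, against 38.4% of all genes. RASSF6, a Ras-association domain protein, read 2.99, 3.05 and 2.93 in the KMH2 control arrays and 9.04 and 9.27 in the Ramos arrays, 71.8-fold higher. CD38, a surface enzyme of germinal centre and plasma cells, read 4.89, 4.86 and 4.99 against 10.82 and 10.85, 60.6-fold higher. MME, the peptidase CD10 used to identify germinal centre lymphomas, read 3.79, 3.95 and 3.86 against 9.79 and 9.61, 57-fold higher. All of these had low values in every KMH2 control array. BCL6, the repressor that defines germinal centre B cells, was intermediate in KMH2 control at 7.82, 7.95 and 7.89 and read 10.72 and 10.63 in Ramos, 6.91-fold higher. SERPINA9, the germinal centre serpin centerin, read 4.74, 4.59 and 4.66 against 10.28 and 9.57, 38.4-fold higher. IRAG2 and GCSAM, 2 further genes of these cells, were 40.1-fold and 18.1-fold higher. MYB, a factor of proliferating precursors, read 9.65, 9.36 and 9.42 in KMH2 control and 9.19 and 8.64 in Ramos and was not called. It was called lower with all 8 arrays sharing the spread (limma adjusted p 0.0208) and with the replicate block (0.0487). Without Ramos array 1 its difference was -0.83. A pair of octamers in the SERPINA9 promoter, in capitals as above, lies in a short repeated stretch (chr14:94476246-94476370, minus strand, RefSeq GRCh38.p14).
SERPINA9: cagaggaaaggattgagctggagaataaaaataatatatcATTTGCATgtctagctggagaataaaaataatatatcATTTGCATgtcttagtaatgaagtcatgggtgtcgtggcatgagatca

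Genes of other B-cell stages did not lean one way. Among 19 plasma cell and secretion genes 7 were higher and 7 lower, 73.7% called against 38.4% of all genes. Without any 1 KMH2 control array 4 were lower. JCHAIN, the joining chain of secreted IgM and IgA, had the largest mean difference towards Ramos of all genes, though not without Ramos array 1, where it was 6.93 against 7.14 for MS4A1. It read 3.54, 3.44 and 3.45 in the KMH2 control arrays and 11.17 and 10.41 in the Ramos arrays, 159-fold higher. CD27, a TNF receptor of activated B cells, was 44.7-fold higher, and MZB1, a chaperone of antibody assembly, 10.7-fold higher. XBP1, the factor of the secretory programme, was 2.33-fold higher but had a difference of only 0.17 against the KMH2 arrays given glucosamine. PRDM1, the repressor Blimp-1, was 1.7-fold lower, a call that was lost without any 1 KMH2 control array (adjusted p up to 0.0927 over the alternatives tried, limma). Of 21 memory and naive B-cell genes 6 were higher and 6 lower, 57.1% called against 38.4% of all genes. S1PR1, a receptor that guides cells out of lymphoid tissue, was 11-fold lower and CD44, a hyaluronan receptor, 27.6-fold lower. Of 15 early B-cell genes 6 were higher and 4 lower, 66.7% called against 38.4% of all genes. VPREB3, a relative of the surrogate light chain, was 14.5-fold higher and CD24, a surface glycoprotein, 14.1-fold lower. VPREB1, a surrogate light chain gene, read 3.98, 4.01 and 4.06 in KMH2 control and 6.44 and 5.22 in Ramos, and its difference was 1.20 without Ramos array 1 and 2.42 without Ramos array 2.

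Receptors through which B cells sense microbes and each other followed the B-cell genes in part. The list of SLAM family receptors, which are mostly homotypic, and their adaptors had 7 of 10 members higher and none lower, with a median of 1.30. Of the 10, 70% were called, against 38.4% of all genes. SLAMF6 read 3.45, 3.52 and 3.41 in KMH2 control and 9.43 and 9.93 in Ramos, 74.8-fold higher, and CD84 was 13.1-fold higher. Of 29 Toll-like receptors and innate sensors 10 were higher and 9 lower, 65.5% called against 38.4% of all genes. CD180, a Toll-like receptor relative of B cells, read 3.46, 3.49 and 3.54 against 10.29 and 9.86, 95.6-fold higher, and TLR10 was 22.5-fold higher. Other members were lower: CGAS, the cytosolic DNA sensor, read 9.33, 9.14 and 9.15 in KMH2 control and 4.44 and 5.05 in Ramos, 22-fold lower, and the endosomal RNA receptor TLR7 was 10.3-fold lower. STING1, the adaptor that CGAS signals through and chosen after its value was seen, was 7.96-fold lower.

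Markers of Hodgkin tumour cells were mostly lower in Ramos: 21 of 35 were lower, 5 higher and 9 not called, with a median difference of -0.84. That was 74.3% called, against 38.4% of all genes. TNFRSF8, which encodes CD30, read 8.85, 8.71 and 8.65 in the KMH2 control arrays and 6.10 and 5.63 in the Ramos arrays, 7.33-fold lower with a limma adjusted p of 7.65e-05. FSCN1, the actin-bundling protein fascin, read 11.44, 11.44 and 11.30 against 7.11 and 7.46, 17.2-fold lower. LGALS1, the secreted lectin galectin-1, read 11.86, 11.89 and 11.91 against 7.04 and 7.23, 26.8-fold lower. BATF3, an AP-1 partner, was 13.9-fold lower, JUNB, an AP-1 subunit, 4.77-fold lower, and TRAF1, an adaptor of TNF receptors, 2.19-fold lower. FUT4, which makes the CD15 epitope, read 7.57, 7.39 and 7.30 against 6.69 and 6.47, 1.78-fold lower.

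Other markers were higher in Ramos, not called, or lower by less than 2-fold. UCHL1, a ubiquitin hydrolase of neurons and germinal centre cells, read 5.21, 5.23 and 5.14 in KMH2 control and 11.03 and 11.25 in Ramos, 61.6-fold higher. CCL22, a chemokine that attracts regulatory T cells, read 6.06, 5.85 and 5.71 against 8.11 and 7.83, 4.28-fold higher. CCL17, its close relative and a serum marker of Hodgkin lymphoma, read 7.11, 7.19 and 7.2 in KMH2 control and 6.41 and 6.47 in Ramos, 1.66-fold lower. The call of CCL17 was lost against the KMH2 arrays given glucosamine (adjusted p 0.0502, limma). IL13 read 5.20, 4.78 and 5.03 and 5.19 and 5.18, and was not called. The checkpoint ligand gene CD274 read 5.77, 5.94 and 6.00 and 5.16 and 5.83, and was not called either. Its difference was -0.74 without Ramos array 2. The neighbouring gene PDCD1LG2 read 7.92, 7.87 and 7.96 against 4.75 and 6.36, 5.13-fold lower. The difference of PDCD1LG2 was -1.55 without Ramos array 1 and -3.16 without Ramos array 2.

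**Figure D3:**
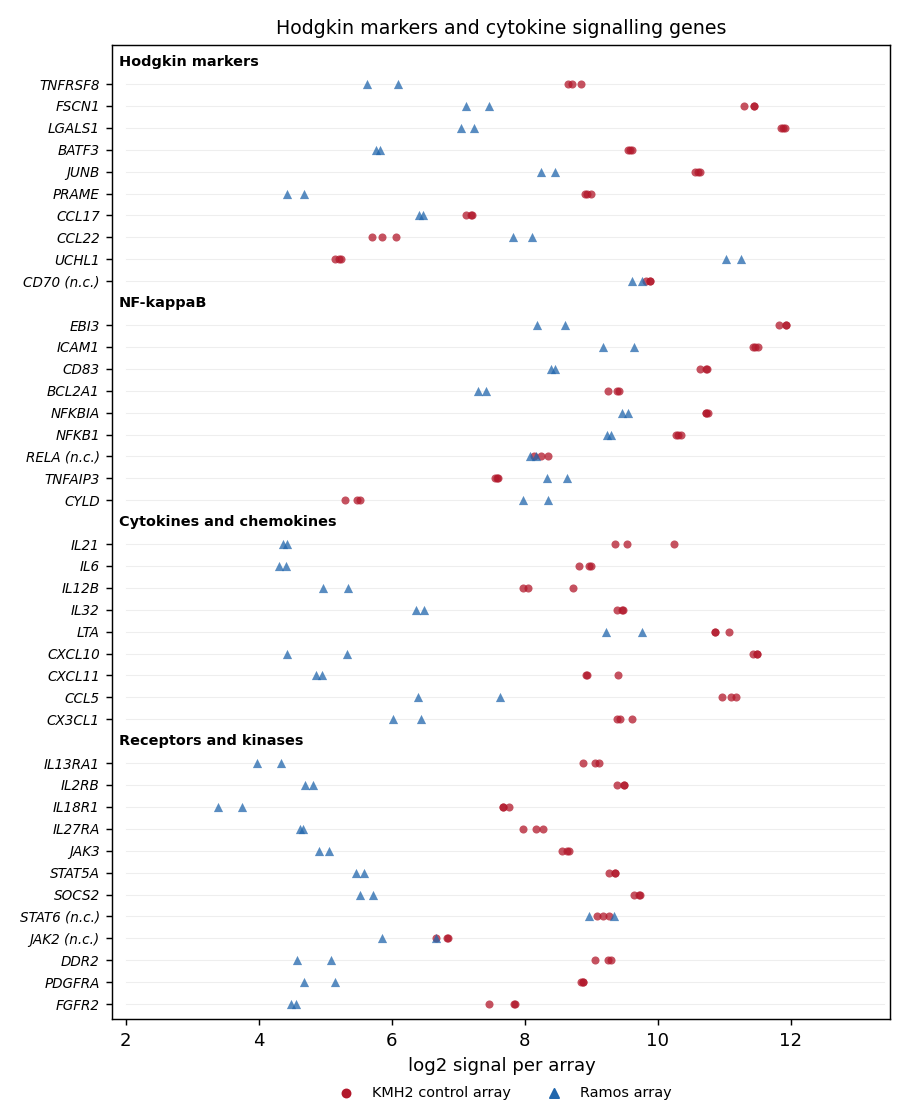
Log2 signal per array (horizontal axis) of Hodgkin markers and cytokine signalling genes (rows), with red circles for the 3 KMH2 control arrays and blue triangles for the 2 Ramos arrays; n.c. marks genes that were not called. The triangles lie to the left in most rows; UCHL1, CCL22, TNFAIP3 and CYLD lie to the right, and RELA, STAT6, JAK2 and CD70 were not called.

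Among TNF receptors 11 of 25 were lower and 4 higher in Ramos, 60% called against 38.4% of all genes. TNFRSF9, the costimulatory receptor 4-1BB, was 9.68-fold lower and CD40, through which T cells activate B cells, 2.18-fold lower. TNFRSF13C, the BAFF receptor of B cells, was 3.61-fold higher. Of 15 TNF ligands 7 were lower and 2 higher, also 60% called. Among them TNFSF10, the death ligand TRAIL, was 11.6-fold lower and TNF itself 2.7-fold lower.

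The NF-kappaB list, of subunits, inhibitors and targets, had 18 of 32 members lower and 7 higher, 78.1% called against 38.4% of all genes. Its median difference was -0.66. EBI3, a cytokine subunit, read 11.83, 11.93 and 11.93 in the KMH2 control arrays and 8.61 and 8.19 in the Ramos arrays, 11.3-fold lower. CD83 and IER3, both target genes, were 4.85-fold and 5.8-fold lower. NFKBIA, the inhibitor that NF-kappaB itself induces, read 10.72, 10.73 and 10.76 against 9.47 and 9.55, 2.34-fold lower. The subunit genes NFKB1, NFKB2, RELB and REL, chosen after their values were seen, were 2.07-fold, 2.43-fold, 2.09-fold and 1.71-fold lower, and RELA was not called. Negative regulators were among the members higher in Ramos. CYLD, a deubiquitinase that restrains NF-kappaB, read 5.29, 5.48 and 5.53 against 7.98 and 8.35, 6.65-fold higher. TNFAIP3, the deubiquitinase A20 that is often lost in Hodgkin lymphoma, read 7.59, 7.60 and 7.56 against 8.63 and 8.34, 1.87-fold higher.

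Of 21 JAK-STAT genes 9 were lower and 2 higher, 52.4% called against 38.4% of all genes. JAK3, the kinase of the common gamma chain, read 8.56, 8.67 and 8.64 in KMH2 control and 4.91 and 5.06 in Ramos, 12.5-fold lower. SOCS2, a feedback inhibitor, read 9.72, 9.65 and 9.74 against 5.52 and 5.72, 17-fold lower. PTPN6, the phosphatase SHP-1, was higher in Ramos, but its Ramos arrays read 10.38 and 8.25 against 6.27, 6.00 and 6.07 in KMH2 control, and its difference was 2.13 without Ramos array 1 and 4.27 without Ramos array 2. The JAK-STAT genes called higher were 1 without KMH2 control array 1 or 2 and 4 without Ramos array 2. STAT6, the factor of interleukin 4 and 13 signalling, read 9.09, 9.18 and 9.27 and 9.34 and 8.97 and was not called, and its difference was 0.81 against the KMH2 arrays given glucosamine. In the AP-1 family 9 of 17 were lower and 5 higher, 82.4% called against 38.4% of all genes. None of the 5 higher genes reached 2-fold, and BATF and JDP2 were 7.03-fold and 5.3-fold lower. The AP-1 genes called higher were 3, 1 and 0 without KMH2 control array 1, 2 or 3.

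Of 33 interleukins and other cytokines 11 were lower, 1 was higher and 21 were not called, and the share called, 36.4%, was near that of all genes. Those called higher were 2 without Ramos array 2 or against the KMH2 arrays given glucosamine. IL21, a B-cell growth cytokine, read 10.24, 9.36 and 9.54 in the KMH2 control arrays and 4.36 and 4.42 in the Ramos arrays, 40.1-fold lower. IL6, an inflammatory cytokine, read 8.97, 8.82 and 9.0 against 4.30 and 4.41, 23.8-fold lower, and IL12B and IL32 were 8.56-fold and 8.07-fold lower. The 21 that were not called lay between -0.18 and 0.37. Cytokine receptors had 18 of 39 lower and 3 higher, 53.8% called against 38.4% of all genes. Those called higher were 5 against the KMH2 arrays given glucosamine. IL13RA1, a chain of the interleukin 13 receptor, read 8.87, 9.05 and 9.11 against 3.97 and 4.33, 29-fold lower, and IL2RB, a chain of the interleukin 2 and 15 receptors, 9.50, 9.50 and 9.39 against 4.70 and 4.81, 26.1-fold lower. The TGF-beta receptor gene TGFBR2 was 6.91-fold higher.

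Of 32 chemokines 9 were lower and 5 higher, 43.8% called against 38.4% of all genes, with a median difference of -0.01. CXCL10, an attractant of T cells, read 11.43, 11.49 and 11.49 in the KMH2 control arrays and 5.32 and 4.42 in the Ramos arrays, 96.9-fold lower. CXCL11, which shares its receptor, read 9.40, 8.94 and 8.92 against 4.95 and 4.86, 18.1-fold lower, and CCL5 10.96, 11.10 and 11.18 against 6.39 and 7.63, 16.7-fold lower. The difference of CCL5 was -3.44 without Ramos array 1 and -4.69 without Ramos array 2. CX3CL1 and its receptor gene CX3CR1 were both lower in Ramos, at 9.48-fold and 7.66-fold. Of 23 chemokine and homing receptors 5 were higher and 6 lower, 47.8% called against 38.4% of all genes. CXCR4, which holds B cells in the germinal centre dark zone, was 3.38-fold higher, and CCR4, the receptor of CCL17 and CCL22, 6.09-fold lower. The homing receptors called higher were 3 without KMH2 control array 2 or 3 and 8 without Ramos array 2. The chemokines called higher were 2, 1 and 1 without KMH2 control array 1, 2 or 3, and CCL22 stayed among the genes called in every alternative.

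Of the genes at least 16-fold lower in Ramos with a promoter in the table, 3 of 124 (2.42%) held the NF-kappaB type motif GGANTTTCC or its reverse complement GGAAANTCC, namely CXCL10, CXCL11 and IL6. The share was 1.47% of all RefSeq promoters, 1.59% of the genes at least 16-fold higher, 2.89% of all called genes at least 2-fold lower and 1.13% of those at least 2-fold higher. The stretches around the motif, in capitals, are shown because they belong to 3 cytokine genes that are low in every Ramos array. They lie at chr7:22727088-22727176 (IL6, plus strand), chr4:76023625-76023713 (CXCL10, minus) and chr4:76036097-76036185 (CXCL11, minus), RefSeq GRCh38.p14.
IL6: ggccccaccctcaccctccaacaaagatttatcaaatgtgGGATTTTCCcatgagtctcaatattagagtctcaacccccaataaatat
CXCL10: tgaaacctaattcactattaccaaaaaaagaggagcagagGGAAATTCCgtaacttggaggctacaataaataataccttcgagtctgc
CXCL11: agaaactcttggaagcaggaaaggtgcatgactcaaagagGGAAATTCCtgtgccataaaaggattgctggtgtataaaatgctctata

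Receptor tyrosine kinases transmit growth factor signals and are often found active in Hodgkin cells. Of 39 measured, 13 were lower, 12 of them at least 2-fold, and 5 higher. The share called was 46.2%, against 38.4% of all genes. DDR2, a collagen receptor, read 9.30, 9.25 and 9.06 in KMH2 control and 5.08 and 4.57 in Ramos, 20.8-fold lower. PDGFRA, a platelet-derived growth factor receptor, read 8.85, 8.87 and 8.87 against 4.68 and 5.15, 15.4-fold lower. FGFR2 and TYRO3 were 9.13-fold and 6.06-fold lower. ROR1, a receptor of Wnt5a, was higher in Ramos, with 4.67, 4.71 and 4.79 in KMH2 control and 6.82 and 8.52 in Ramos. Its difference was 3.80 without Ramos array 1 and 2.09 without Ramos array 2. The kinases called higher were 3, 2 and 2 without KMH2 control array 1, 2 or 3.

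Differences among MHC class II genes, through which B cells present antigen, were small. Of 18 genes 4 were higher and 3 lower, 38.9% against 38.4% of all genes, but none of them reached 2-fold, and the median difference was 0.00. HLA-DRA read 12.44, 12.31 and 12.39 in the KMH2 control arrays and 12.36 and 12.42 in the Ramos arrays, a difference of 0.01 with a 95% confidence interval of -0.17 to 0.20. CD74, the invariant chain, read 11.86, 11.70 and 11.72 against 11.86 and 11.92, a difference of 0.13 (95% confidence interval -0.07 to 0.33). These intervals leave out a 2-fold difference in signal in either direction. The highest signals of the arrays compared lay between 13.06 and 13.21, and whether such bright signals are compressed was not tested. CIITA, the master regulator of these genes, read 7.39, 7.27 and 7.33 and 7.28 and 6.55 and was not called. Its difference was -0.78 without Ramos array 1. HLA-DOB, a B-cell modulator of peptide loading, was 1.93-fold higher. The class II genes called higher were 7 without Ramos array 1.

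MHC class I genes were lower by small amounts, with 9 of 19 lower, 2 higher and a median of -0.31. Of the 19, 57.9% were called, against 38.4% of all genes. Those called lower were 4 without KMH2 control array 2 and 5 without array 3, and those called higher 1 without any 1 KMH2 control array. TAP1, which carries peptides into the endoplasmic reticulum, was 2.62-fold lower, and B2M, the light chain, read 11.56, 11.59 and 11.68 against 10.81 and 11.26. The call of B2M was lost without any 1 KMH2 control array (adjusted p up to 0.0971 over the alternatives tried, limma). HLA genes have near-identical relatives, so single members are uncertain. Of 26 checkpoint and costimulatory ligands 8 were lower and 3 higher, 42.3% called against 38.4% of all genes. ENTPD1, the adenosine-producing surface enzyme CD39, was 33.5-fold lower. Of 16 ligands of NK receptors 4 were higher and none lower, 25% called against 38.4% of all genes. Without Ramos array 1 there was 1 called lower, without Ramos array 2 there were 2, and against the KMH2 arrays given glucosamine there were 6. NCR3LG1, the tumour ligand B7-H6, read 3.65, 3.90 and 3.86 in KMH2 control and 8.77 and 8.03 in Ramos, 24.2-fold higher.

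Interferon-stimulated genes were lower in Ramos in 19 of 38 cases and higher in 6, 65.8% called against 38.4% of all genes. Their median difference was -0.66. IFITM1, which blocks virus entry, read 11.04, 11.03 and 11.06 in the KMH2 control arrays and 5.48 and 5.38 in the Ramos arrays, 48.9-fold lower. MX2, an antiviral GTPase, read 9.44, 9.27 and 9.27 against 4.25 and 4.22, 34.1-fold lower, and IFITM2 and IFITM3 were 19-fold and 9.66-fold lower. The list was not uniform: PARP9, chosen after its value was seen, was 6.28-fold higher, and MX1, a relative of MX2, read 4.86, 4.85 and 4.88 and 4.98 and 5.03 and was not called. Among complement genes 7 of 24 were lower and 1 higher, 33.3% called against 38.4% of all genes, and those called higher were 0 without any 1 KMH2 control array, 4 without Ramos array 1 and 2 without Ramos array 2. CFB, a factor of the alternative pathway, was 5.81-fold lower. C5 read 7.24, 7.57 and 7.51 in KMH2 control and 5.94 and 5.14 in Ramos, 3.74-fold lower, but differed by 0.02 from the KMH2 arrays given glucosamine.

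**Figure D4:**
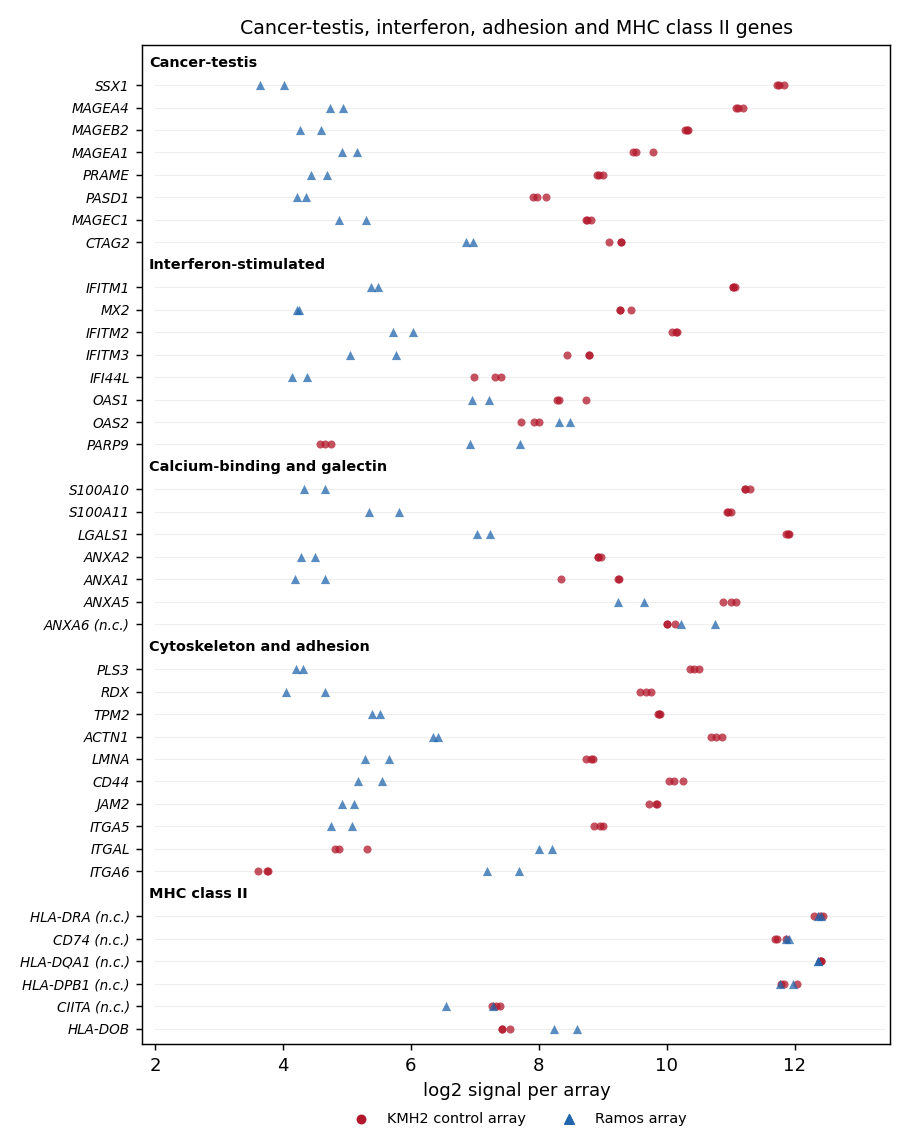
Log2 signal per array (horizontal axis) of cancer-testis, interferon-stimulated, calcium-binding, cytoskeletal, adhesion and MHC class II genes (rows), with red circles for the 3 KMH2 control arrays and blue triangles for the 2 Ramos arrays; n.c. marks genes that were not called. The triangles lie far to the left for the cancer-testis genes, to the right for PARP9, OAS2, ITGAL, ITGA6 and HLA-DOB, and on top of the circles for HLA-DRA, CD74, HLA-DQA1 and HLA-DPB1.

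Cancer-testis antigens, normally made in the germ line, had the lowest median difference of the lists, -2.30. Of 19, 14 were lower in Ramos, none was higher and 5 were not called, 73.7% called against 38.4% of all genes. Without Ramos array 1 there was 1 called higher. SSX1 read 11.84, 11.75 and 11.73 in the KMH2 control arrays and 4.01 and 3.64 in the Ramos arrays, 248-fold lower with a limma adjusted p of 1.81e-06. MAGEA4 read 11.20, 11.09 and 11.11 against 4.94 and 4.73, 78.5-fold lower, and MAGEB2 10.33, 10.29 and 10.32 against 4.27 and 4.59, 59.2-fold lower. PRAME, a substrate receptor of a ubiquitin ligase, read 8.91, 9.0 and 8.94 against 4.68 and 4.43, 21.1-fold lower. Each was low in both Ramos arrays and well measured in all KMH2 control arrays. MAGE and SSX genes have near-identical relatives whose RNA the same probes may bind, which makes values of single members uncertain. GTSF1, a germ-line factor of the piRNA pathway that is in none of the lists, read 11.40, 11.29 and 11.30 against 4.40 and 4.18, 132-fold lower.

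Some families stood out by position rather than function, and were picked after their values were seen. Small nucleolar RNAs of the imprinted SNORD116 cluster were higher in Ramos in 19 of 21 cases, 90.5% called against 38.4% of all genes. Their median was 2.10 and none was lower, whereas none of the 23 SNORD115 copies beside them was called. SNORD116-20 read 7.71, 7.42 and 7.43 in KMH2 control and 10.18 and 10.32 in Ramos, 6.61-fold higher. The copies share sequence and are not independent measurements. Of 77 other SNORD genes 43 were higher and none lower, 55.8% called, with a median of 0.51. HOXC genes, which pattern the body axis, were lower in 6 of 7 cases, 85.7% called, with a median of -1.18. None of 9 HOXD genes was called. HOXC9 read 7.21, 7.37 and 7.39 against 4.83 and 4.53, 6.26-fold lower. Among 486 genes named ZNF, mostly zinc finger repressors, 163 were higher and 94 lower, 52.9% called against 38.4% of all genes. In the RefSeq gene order, the longest run of neighbouring tested genes called in the same direction held 12 of them, from ZNF808 to ZNF702P, all higher, with a median of 1.71. A run of 9 from ZNF101 to ZNF826P was also higher, with a median of 1.98. Whether neighbours in these runs are independent measurements was not tested.

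Of 180 microRNA genes 12 were higher and 2 lower, 7.78% called against 38.4% of all genes. The probe sets measure precursor or host transcripts and not the mature microRNA. MIR142, the gene of a microRNA typical of blood cells, read 5.83, 5.63 and 5.67 in the KMH2 control arrays and 7.67 and 7.79 in the Ramos arrays, 4.06-fold higher. MIR199A2 read 6.49, 7.23 and 7.34 against 5.29 and 5.15, 3.48-fold lower. MIR99A and MIR15A, chosen like the others after their values were seen, were 1.57-fold and 1.51-fold higher. The mature sequences of both arms of the pair with the largest differences follow, from RefSeq (GRCh38.p14), with the seed, bases 2 to 8, in capitals. No seed is shared among them.
miR-142-5p: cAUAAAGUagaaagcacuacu
miR-142-3p: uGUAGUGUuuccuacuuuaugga
miR-199a-5p: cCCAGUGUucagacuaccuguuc
miR-199a-3p: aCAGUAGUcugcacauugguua

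Genes of cell shape and attachment included some of the largest differences on the KMH2 side. Among S100, annexin and galectin genes 12 of 29 were lower in Ramos and none higher, 41.4% called against 38.4% of all genes. Those called higher were 2 without Ramos array 1 and 3 without Ramos array 2. S100A10, the partner of annexin A2, read 11.22, 11.30 and 11.22 in the KMH2 control arrays and 4.33 and 4.65 in the Ramos arrays, 108-fold lower, and ANXA2 itself 8.93, 8.92 and 8.97 against 4.28 and 4.50, 23.4-fold lower. Both partners of that complex were thus low in each Ramos array. Actin and cytoskeleton regulators were divided, 10 of 39 being higher and 10 lower, and the larger differences were the lower ones. PLS3, the actin bundler plastin 3, read 10.37, 10.43 and 10.51 against 4.20 and 4.31, 72.5-fold lower, and RDX, which links actin to the membrane, 9.58, 9.67 and 9.76 against 4.66 and 4.04, 40-fold lower. CNN2, a calponin, was 3.4-fold higher, and without Ramos array 2 the members called higher were 18. Of 25 adhesion molecules 10 were lower and 2 higher, 48% called against 38.4% of all genes. Those called higher were 1 without KMH2 control array 2 or 3. JAM2 and JAM3, junction proteins, were 27.6-fold and 11.4-fold lower. Of 24 integrins 5 were higher and 5 lower, 41.7% called against 38.4% of all genes. The fibronectin receptor chain ITGA5 was 16.4-fold lower. ITGAL, the LFA-1 chain, and ITGA6, a laminin receptor chain, were 8.59-fold and 13.3-fold higher. Among 31 metalloproteinases and inhibitors 6 were lower, 2 higher and 23 not called, 25.8% called against 38.4% of all genes. Those called higher were 1 without any 1 KMH2 control array. MMP12, the macrophage elastase, read 11.15, 11.64 and 11.69 against 3.60 and 3.59, 239-fold lower, and TIMP1, an inhibitor of these enzymes, 11.52, 11.37 and 11.46 against 4.74 and 4.83, 102-fold lower. PRG4, the lubricating proteoglycan of joints, was among the lowest genes too, at 12, 12.12 and 12.09 against 4.37 and 4.15, 224-fold lower.

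Death and survival genes differed in single members. Of 20 BCL2 family genes 6 were higher and 4 lower, 50% called against 38.4% of all genes. BCL2L11, which encodes the killer protein BIM, read 4.88, 5.15 and 5.15 in KMH2 control and 9.39 and 10.07 in Ramos, 25.5-fold higher, and BID was 10.3-fold higher. BCL2A1, a survival protein and NF-kappaB target, was 3.98-fold lower. BCL2 itself read 7.70, 7.83 and 7.69 and 7.45 and 7.88 and was not called. Without any 1 KMH2 control array the members called lower were 2. Death receptors and their adaptors had 7 of 19 lower and 2 higher, all but 3 of these by less than 2-fold. The share called was 47.4%, against 38.4% of all genes. Those called higher were 1 without KMH2 control array 2 or 3. Of 26 p53 pathway genes 8 were higher and 9 lower, 65.4% called against 38.4% of all genes. Without any 1 KMH2 control array the p53 genes called lower were 5, and without array 2 or 3 those called higher were 4.

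MYC, which is translocated in Burkitt lymphoma, read 9.33, 9.17 and 9.27 in the KMH2 control arrays and 10.40 and 9.72 in the Ramos arrays, 1.75-fold higher with a limma adjusted p of 0.0265. The call was lost without any 1 KMH2 control array (adjusted p up to 0.1 over the alternatives tried). Of 36 MYC targets and ribosome assembly genes 5 were higher and 7 lower, 33.3% called against 38.4% of all genes. These genes followed the array: Ramos array 2 was above Ramos array 1 in only 2 of the 36, 21 were called lower without Ramos array 1 and 13 were called higher without Ramos array 2. Those called lower were 3, 3 and 4 without KMH2 control array 1, 2 or 3, and those called higher 3 without array 2 or 3. DNA replication genes did likewise, with 2 of 36 higher and 5 lower, 19.4% called against 38.4% of all genes. Ramos array 2 was above array 1 in 1 of the 36, and the median of array 2 minus array 1 was -0.78. The replication genes called lower were 2, 1 and 1 without KMH2 control array 1, 2 or 3. Against the KMH2 arrays given glucosamine 9 were higher and 1 lower. Of 28 mitosis genes 10 were higher, among them PLK1, a mitotic kinase, at 2.68-fold, and 5 lower. That was 53.6% called, against 38.4% of all genes. Without KMH2 control array 1, 2 or 3 those called lower were 3, 2 and 1, and without Ramos array 1 they were 8. Among 27 G1 regulators 9 were higher and 8 lower, 63% called against 38.4% of all genes. CCND2, cyclin D2, read 11.53, 11.46 and 11.42 against 4.95 and 4.46, 109-fold lower, whereas E2F2, an activator of replication genes, was 7.61-fold higher and CDKN2A, an inhibitor of cyclin-dependent kinases, 4.98-fold higher. Without KMH2 control array 2 or 3 the G1 genes called higher were 5.

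Chromatin enzymes were divided, 9 of 29 being higher and 11 lower, 69% called against 38.4% of all genes. KDM5B, a histone demethylase, read 3.96, 4.11 and 4.10 in KMH2 control and 8.66 and 8.57 in Ramos, 23.5-fold higher. SMARCA2, a remodelling ATPase, read 9.74, 9.45 and 9.44 against 6.60 and 6.66, 7.54-fold lower. Without KMH2 control array 1, 2 or 3 those called higher were 5, 4 and 4, and without array 2 those called lower were 7.

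Among metabolic genes 13 of 29 respiratory chain subunits were higher and 2 lower, 51.7% called against 38.4% of all genes. All but 2 of those called differed by less than 2-fold. Of 24 genes of glucose uptake and glycolysis 7 were higher and 4 lower, 45.8% called against 38.4% of all genes. SLC2A5, the fructose transporter, read 7.4, 6.79 and 6.93 in KMH2 control and 10.35 and 9.90 in Ramos, 8.49-fold higher, and ENO2, a neuronal enolase, 9.71, 9.90 and 9.84 against 5.25 and 6.04, 18-fold lower. Without Ramos array 1 there were 10 glycolytic genes called lower, and without Ramos array 2 there were 12 called higher. Of 43 targets of ATF4, the factor of amino acid and secretory stress, 19 were higher and 6 lower, with a median of 0.62. That was 58.1% called, against 38.4% of all genes. Ramos array 2 was above array 1 in 36 of these 43. CHAC1, which degrades glutathione, read 5.23, 5.22 and 5.45 against 8.14 and 9.06. CBS, an enzyme of cysteine synthesis, read 5.54, 5.44 and 5.55 against 8.84 and 8.72. EIF4EBP1 was lower in Ramos, with 9.08, 8.89 and 9.01 against 5.66 and 5.78, 9.65-fold lower. SLC7A11 was 5.76-fold higher, but its difference was -0.37 against the KMH2 arrays given glucosamine. The targets called higher were 29 without Ramos array 1, 12 without KMH2 control array 3, and 7 against the KMH2 arrays given glucosamine, where 10 were lower. Of 16 genes that make or use UDP-N-acetylglucosamine, the product of the hexosamine pathway that glucosamine enters, 5 were higher and 5 lower. That was 62.5% called, against 38.4% of all genes. GNPDA1, which deaminates glucosamine phosphate, read 7.97, 7.92 and 7.83 in KMH2 control and 5.08 and 4.40 in Ramos, 8.96-fold lower. Without Ramos array 1 the hexosamine genes called higher were 8.

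Marker lists of other cell types were read as a check of the labels. Of 26 T-cell and NK markers 4 were higher and 6 lower in Ramos, 38.5% called against 38.4% of all genes, and those called higher were 2 without KMH2 control array 1 or 3 and 7 without Ramos array 1. CD4 read 9.69, 9.70 and 9.63 in KMH2 control and 4.80 and 4.82 in Ramos, 29-fold lower, and CD3G and CD3D, chains of the T-cell receptor complex, were 6.34-fold and 5.66-fold lower. LCK, a kinase of T cells, was 3.16-fold higher. Mean signals of the list ran from 5.51 to 5.56 in the KMH2 control arrays and from 5.14 to 5.17 in the Ramos arrays. CD3E, CD2, CD7 and GZMB were not called. The markers called higher were 2 without KMH2 control array 1 or 3 and 7 without Ramos array 1. Of 18 myeloid markers 5 were higher and 3 lower, 44.4% called against 38.4% of all genes, with mean signals of 5.24 to 5.29 against 5.31 to 5.40. The lower markers were CSF1R, CD14 and ITGAM, at 4.22-fold, 3.89-fold and 3.23-fold. Of the 5 higher markers 2 reached 2-fold, among them CLEC7A at 7.99-fold, with 5.04 and 6.89 in the Ramos arrays. The myeloid markers called higher were 3 without KMH2 control array 2 or 3. Of 20 fibroblast and epithelial markers 3 were higher and 1 lower, all by less than 2-fold, with mean signals of 4.94 to 4.99 against 4.96 to 5.10. Those called higher were 6 without Ramos array 1, and those called lower 0 without KMH2 control array 2 or 3 and 3 without Ramos array 2. None of 8 erythroid and platelet markers was called, and 1 was called higher without either Ramos array. The part of other cell types in the results was not tested.

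**Figure D5:**
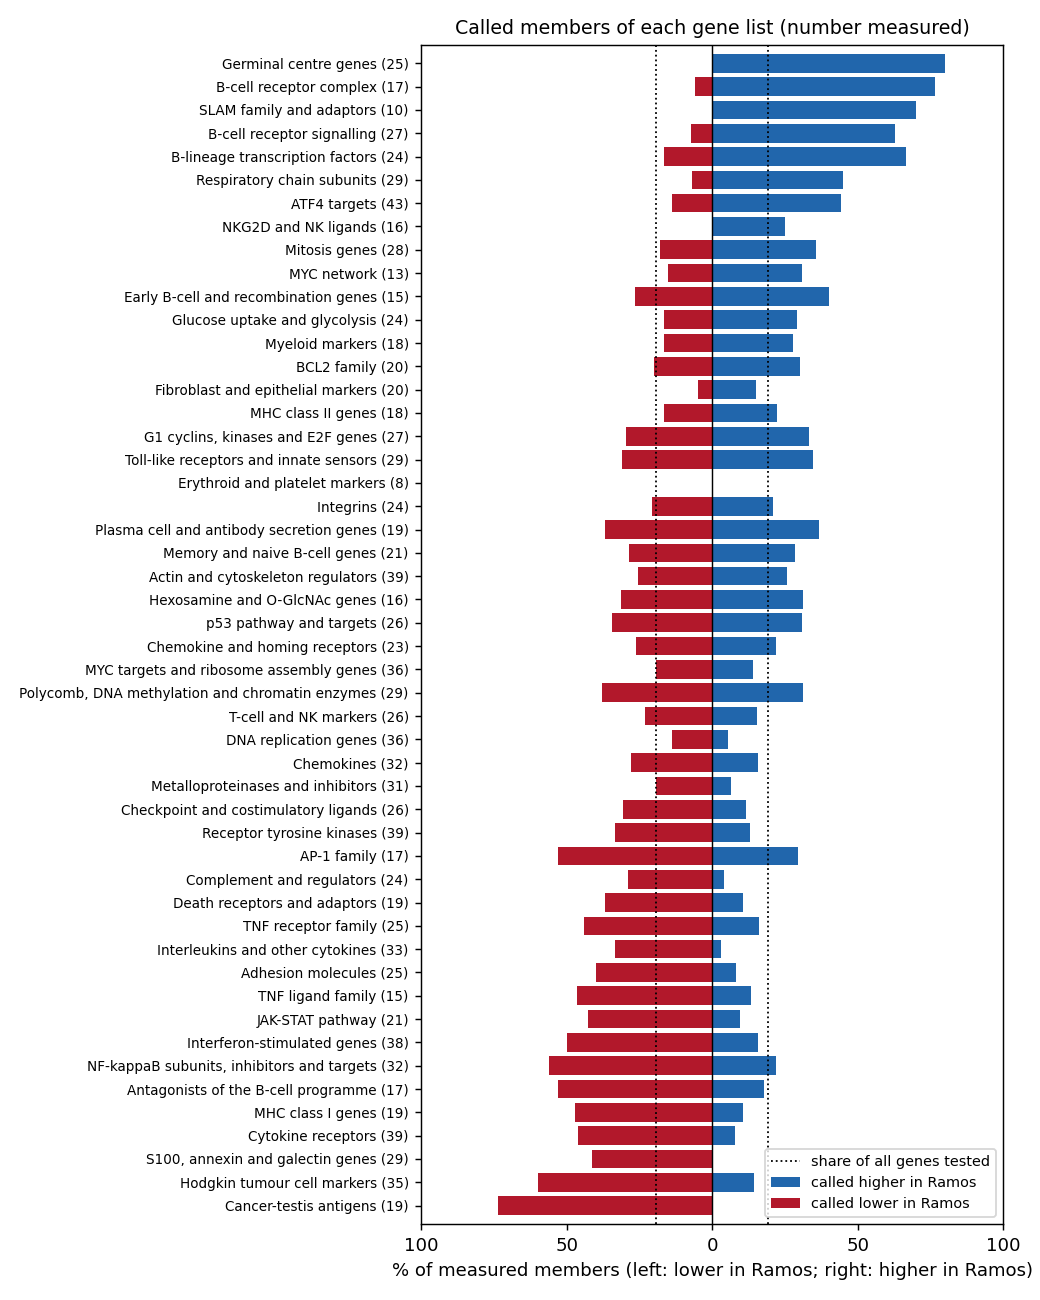
Share of the measured members of each gene list that was called higher (blue, to the right) or lower (red, to the left) in Ramos, in percent, with the number measured after each name. Dotted lines mark the share over all genes tested, 19.2% in each direction. Germinal centre genes, with 20 of 25 higher, stand at the top and cancer-testis antigens, with 14 of 19 lower, at the bottom.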

How the data were processed

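The authors deposited log2 signals per probe set for 33297 probe sets, from HuGene whole-transcript strips by Affymetrix per the labels. The log2 unit was read from the values. How signals were summarized, background-corrected and normalized is not stated in the labels. Array medians lay between 5.62 and 5.68, and the number of arrays limits the precision.

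GEO's platform annotation, which is older than the RefSeq table used, named 19181 probe sets with 1 symbol, 2055 had several and 12061 were unlisted. Of the 19181, 19143 matched the RefSeq gene table (GRCh38.p14) by Entrez identifier. For 895 genes with several probe sets the brightest was taken; 4 of 355 such called genes had another probe set called in the opposite direction.

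Ramos was compared with KMH2 control in limma 3.58.1 under R 4.3.3, with lmFit, eBayes, two-sided tests and a Benjamini-Hochberg adjustment over the 19181 probe sets. The procedure was tested on simulated data first. Every adjusted p, SE and confidence interval is from limma, and ± after a mean difference is the SE.

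The members and the 50 gene lists were chosen with earlier results of these data known. The genes named were the 15 largest and 15 smallest differences, up to 6 called members with the largest differences in the B-cell, Hodgkin, signalling and MHC lists and up to 4 in the others, and a fixed set of lineage and lymphoma genes. Other list members, families and runs named were chosen after their values were seen. Listed genes without a single-symbol probe set, 111 in number, were not analysed here. No set test was run, and lists are described by counts and medians. Lists share members. Alternatives were other normalizations, probe-set choices, variance models, the KMH2 glucosamine arrays as reference, a block on the replicate number and leaving out each array.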

Additional observations from a re-analysis of the deposited data

How the results depend on the processing

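Under the 16 alternatives the genes called ranged from 4329 to 9096. Of the 6891 genes called, between 4308 and 6846 kept their call, apart from the filter on dim probe sets, which tested 10586 genes. Calls in the opposite direction numbered 11 against the KMH2 glucosamine arrays, 1 with the mean of a gene's probe sets and 0 elsewhere. With the replicate number as a block 4329 genes were called, 1966 of them higher. Deviations of arrays with the same number correlated by 0.04 and 0.03. The deviations of the 2 Ramos arrays mirror each other, so these values cannot decide whether the numbers pair the arrays. Leaving out each array in turn gave 4804 to 9096 genes in all, 2230 to 4633 higher, 2574 to 4463 lower, 1042 to 1364 at least 2-fold higher and 1452 to 1761 at least 2-fold lower. Genes called higher numbered 2230 without KMH2 control array 2 and 2249 without array 3. Without a Ramos array the lone one was assumed to vary like the KMH2 control arrays. Directions turned against the KMH2 glucosamine arrays for C5 (0.02), CR2 (0.06), SESN2 (-0.15), SLC7A11 (-0.37) and STAT6 (0.81). HLA-DRA turned with median centring (-0.01), without KMH2 control array 2 (-0.02) and without Ramos array 2 (-0.02). STAT6 turned with the block (0.02), without KMH2 control array 3 (0.02) and without Ramos array 2 (0.15), and BCL2 without Ramos array 1 (0.13). Leaving out single arrays gave -0.29 to 0.13 for BCL2, -0.02 to 0.05 for HLA-DRA and -0.21 to 0.15 for STAT6. The cause of these changes was not tested. HLA-DRA, STAT6 and BCL2 were not called to begin with.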
